A study of Mus musculus with 10 samples.

Results

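Calprotectin is the protein pair of S100a8 and S100a9, and it is released both by neutrophils and by stressed keratinocytes. The genes described here are 9 of the 24452 named genes in the count table: the calprotectin subunits, the siderophore-binding lipocalin Lcn2, the granule genes Ngp, Camp, Ltf, Mpo and Elane, and the neutrophil-expressed resistin-like gene Retnlg. They were chosen by gene symbol. S100a8, S100a9 and Lcn2 are alarmins that the epidermis can make itself, and the other 6 are made mainly by neutrophils and their precursors.

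The libraries came from treated, nontumoral, full-thickness back skin of C57BL/6 mice, 5 wild type (WT) and 5 TTP delta ARE knock-in (Zfp36ΔARE). All mice, controls included, received 400 nmol of DMBA once on shaved skin at 7 weeks of age and, from 1 week later, 10 nmol of TPA 2 times a week for 20 weeks, each in 0.2 ml acetone. In the knock-in, an instability motif was deleted from the 3′ end of the endogenous Zfp36 gene, so the change was not confined to skin. Littermates served as controls. There was no untreated skin in the comparison, and how many knock-in alleles each mouse carried is not given in the sources used here.

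Neutrophils build their granules in waves while they mature. Azurophil granules with myeloperoxidase (Mpo) and neutrophil elastase (Elane) come first. Specific granules with lactoferrin (Ltf), the cathelicidin Camp and the neutrophilic granule protein Ngp come next, and S100a8 and S100a9 remain abundant late. A neutrophil that has reached the skin has largely stopped transcribing its granule genes, whereas keratinocytes raise S100a8, S100a9 and Lcn2 during wound healing, psoriasis and phorbol ester treatment. Tristetraprolin (TTP), the protein of Zfp36, binds AU-rich elements in messenger RNAs and speeds their decay.

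S100a8 and S100a9 lie 22.6 kb apart on chromosome 3 (GRCm38), on opposite strands: S100a8 at chr3:90668978-90670035 on the plus strand and S100a9 at chr3:90692632-90695721 on the minus strand. Lcn2 lies at chr2:32384633-32388252 on the minus strand. Ngp, Camp and Ltf share chromosome 9, with 570.1 kb between Ngp and Camp and 596.3 kb between Ngp and Ltf. Of the 9 genes, Mpo overlapped an annotated antisense transcript on the opposite strand, and since strand use in counting is not given, its reads cannot be assigned with certainty.

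The promoters were searched because C/EBP transcription factors switch on granule genes in developing neutrophils. A match to TTGCNNAA on either strand, the core of the C/EBP palindrome, was present in the 300 bases around the RefSeq start (250 before, 50 after) of 5 of the 9 genes, against 10.8% of 32851 mouse promoters of the same length. In the sequences from RefSeq on GRCm38.p6, read on the strand of each gene, capitals mark the C/EBP match or, for S100a8, the TATA box core TATAAA.
S100a8 (chr3:90669030-90669057, plus, TATA 30 bases before the start): aagctttcctcTATAAAagcagctgaca
S100a9 (chr3:90695939-90695968, minus, 236 bases before): ggtaggctgtcTTGCTTAAgatttgggcgg
Lcn2 (chr2:32387937-32387966, minus, 216 bases before): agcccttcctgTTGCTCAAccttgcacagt
Ngp (chr9:110419659-110419688, plus, 138 bases before): gtcctggtttaTTGCCCAAacctccttgcc
Ngp (chr9:110419786-110419807, plus, 11 bases before): accggcagttcTTGGGCAAggc
Ltf (chr9:111019206-111019235, plus, 75 bases before): aggcaggcctaTTGGGCAAtagggtggggc
Retnlg (chr16:48872358-48872380, plus, 246 bases before): agctTTCTGCAAggcattccagg

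S100a8, Camp, Mpo and Elane held no match to the C/EBP letters in this window. The TATA letters were present in the windows of S100a8 and S100a9, in the latter 1 base after the start, and in 13.6% of all promoters. The letters of the STAT palindrome (TTCNNNGAA) and of the TPA response element that AP-1 binds (TGANTCA) were in none of the 9 windows, against 8.3% and 7.81% of all promoters. The AU-rich pentamer ATTTA was counted in the longest annotated 3′ UTR of each gene (GENCODE M21 annotation of GRCm38). Ltf held 3 in 585 bases and the other 8 genes held 0, S100a8 in 68 bases, S100a9 in 114 and Lcn2 in 232, while 65.2% of 21020 genes held at least 1. These matches are letters in a window and were not tested as binding sites.

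Across the series, library totals ran from 21638369 to 32583189 counts in WT and from 19595024 to 36419553 in Zfp36ΔARE skin. A normalized count is the raw fragment count scaled by library size and TMM factor, and an adjusted p is Benjamini-Hochberg adjusted over all genes tested. Zfp36 itself had 2152 ± 277 normalized counts in WT libraries and 5427 ± 766 in Zfp36ΔARE libraries (SD, n = 5), with no overlap between groups (log2 fold change 1.33, SE 0.119, edgeR adjusted p = 0.00195). Y-linked counts were 3349 to 4262 in Zfp36ΔARE replicates 2 to 5 and at most 1 in Zfp36ΔARE replicate 1 and all WT libraries, so genotype and this difference can be told apart only through 1 knock-in library. The mean level of 14 hair shaft genes was lowest in WT replicate 3 at 2.86 and WT replicate 1 at 5.39, against 7.26 to 7.67 in the other WT and 8.40 to 9.53 in the Zfp36ΔARE libraries (log2 of CPM + 0.5, where CPM is the count scaled to library size as edgeR does). Hemoglobin genes, which mark blood left in a biopsy, were listed at 0 in every library, so blood could not be gauged from them. In bulk tissue, fewer cells of a type and less RNA per cell cannot be told apart.

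Of the 9 genes, 4 held enough counts to be tested between genotypes (S100a8, S100a9, Lcn2 and Retnlg), and 5 were removed by the filter on low counts (Ngp, Camp, Ltf, Mpo and Elane). None of the 4 passed in edgeR, 0 at an adjusted p under 0.05 and 0 at an unadjusted p under 0.05, and DESeq2 and limma-voom also called 0. Over all 15543 genes tested, 34.3% passed, 15.3% as higher and 19.1% as lower in Zfp36ΔARE skin, and 8.31% passed with a fold change over 2. The ranges of the genotypes overlapped for all 4 tested genes, whereas 23.1% of all tested genes had ranges that did not overlap. They also overlapped for the 5 removed genes, whose counts were too low to set beside that share. The median log2 fold change was 0.28 over the 4 tested genes and 0.0076 over all tested genes. The median of the 4 did not keep its sign, at -1.05 without Zfp36ΔARE replicate 4, -0.54 in limma-voom, -0.39 with replicate number as a block, -0.098 without WT replicates 1 and 3, and -0.95 with Zfp36ΔARE replicate 1 as the only knock-in library.

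S100a8 was at 528, 1542, 287, 1947 and 1747 normalized counts in WT replicates 1 to 5 and at 835, 493, 679, 6290 and 1688 in Zfp36ΔARE replicates 1 to 5. A single knock-in library, replicate 4, stood above all others, WT replicate 3 was the lowest, and the remaining libraries of the genotypes were interleaved. The means were 1210 ± 752 in WT and 1997 ± 2443 in Zfp36ΔARE skin (SD, n = 5), a log2 fold change of 0.72 (SE 0.774, 95% interval -1.01 to 2.44, edgeR adjusted p = 0.487). On the linear scale that interval ran from 0.496-fold to 5.44-fold. The medians were ordered the other way, 1542 in WT and 835 in Zfp36ΔARE skin. Without Zfp36ΔARE replicate 4, the log2 fold change was -0.39 (edgeR adjusted p = 0.62).

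S100a9, the partner subunit, was at 894, 1999, 438, 2750 and 2836 normalized counts in WT replicates 1 to 5. In the Zfp36ΔARE replicates it was at 559, 457, 403, 12000 and 2281. Replicate 4 again stood far above the rest, and 3 knock-in libraries lay near the lowest WT library. The means were 1783 ± 1083 in WT and 3141 ± 5017 in Zfp36ΔARE skin (SD, n = 5), with a log2 fold change of 0.81 (SE 0.988, 95% interval -1.39 to 3.02, edgeR adjusted p = 0.539). The medians were 1999 and 559. Without Zfp36ΔARE replicate 4 the log2 fold change turned to -0.95 (edgeR adjusted p = 0.308). With all libraries, limma-voom, which fits log2 values with a weight for each value, gave -0.32.

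Lcn2 encodes the lipocalin that captures bacterial siderophores and so withholds iron from microbes. It was at 240, 763, 327, 353 and 229 normalized counts in WT replicates 1 to 5 and at 148, 90.5, 150, 1048 and 307 in the Zfp36ΔARE replicates. WT replicate 2 and Zfp36ΔARE replicate 4 each stood apart within their group, and the 3 lowest libraries were knock-ins. The means, 382 ± 219 and 349 ± 399 (SD, n = 5), differed by -0.15 on the log2 scale (SE 0.651, 95% interval -1.60 to 1.30, edgeR adjusted p = 0.871). Without Zfp36ΔARE replicate 4 the difference was -1.15 (edgeR adjusted p = 0.0723), and without WT replicate 2 it was 0.27 (edgeR adjusted p = 0.774).

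**Figure D1:**
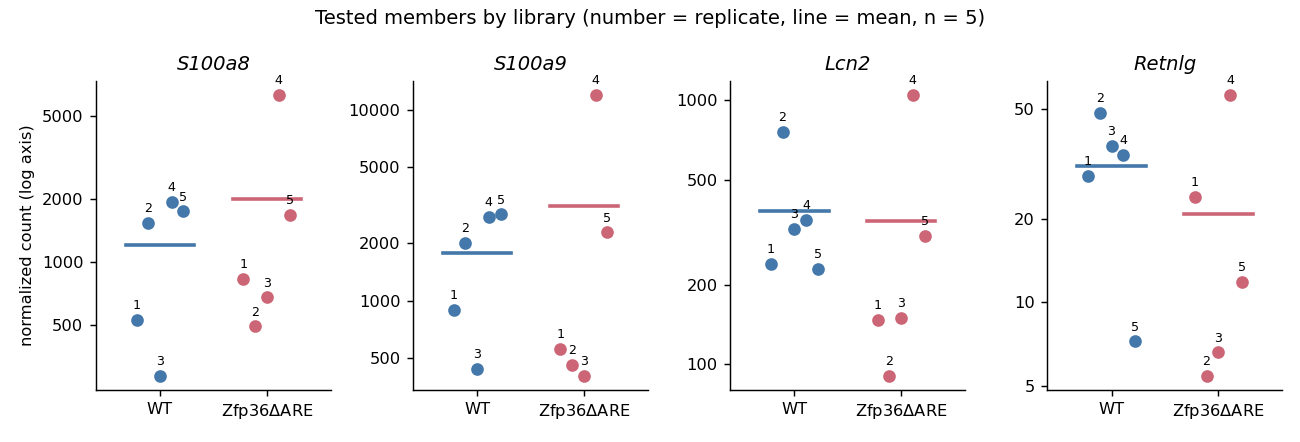
Normalized counts of S100a8, S100a9, Lcn2 and Retnlg in each library on a log axis, by genotype, with the replicate number beside each point and a line at the mean (n = 5). Zfp36ΔARE replicate 4 is the highest point in all 4 panels, and the genotypes overlap in each.

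Retnlg, a small secreted protein of the resistin family that neutrophils express, was at 28.6, 48.5, 36.6, 34.0 and 7.22 normalized counts in WT replicates 1 to 5. The Zfp36ΔARE replicates held 24.0, 5.43, 6.59, 56.1 and 11.9. The highest and the lowest library were both knock-ins. Means were 31.0 ± 15.1 and 20.8 ± 21.1 (SD, n = 5), with a log2 fold change of -0.61 (SE 0.632, 95% interval -2.01 to 0.78, edgeR adjusted p = 0.463). The log2 fold change was -1.33 without Zfp36ΔARE replicate 4 (edgeR adjusted p = 0.0935).

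The remaining granule genes gave 195 raw counts in all, 148 in WT and 47 in Zfp36ΔARE skin, summed over 5 genes and 10 libraries. By library the sum was 22, 93, 15, 4 and 14 in WT replicates 1 to 5 and 8, 14, 3, 14 and 8 in the Zfp36ΔARE replicates. WT replicate 2 alone gave 47.7% of these counts, and the other WT libraries together held 55. At the depth of these libraries, 3 counts, the limit that a count of 0 allows, corresponded to between 0.0843 and 0.150 CPM.

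Ngp, a specific granule protein of the cathelicidin-cystatin family, had raw counts of 0, 39, 0, 0 and 2 in WT replicates 1 to 5 and of 1, 0, 0, 0 and 0 in the Zfp36ΔARE replicates. WT replicate 2 held 92.9% of its counts. Scaled by depth, the count in WT was 38.7 times that in Zfp36ΔARE skin (95% counting interval 6.57 to 1566), but without WT replicate 2 the ratio was 2.49 (0.130 to 147). The counting intervals here and for the other low genes cover counting error only and not the spread between libraries. Over libraries, an exact two-sided permutation test of the log2 levels gave p = 0.444, and p = 0.722 without WT replicate 2.

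Ltf, the iron-binding lactoferrin, had raw counts of 5, 16, 5, 0 and 1 in WT and of 0, 0, 2, 0 and 1 in Zfp36ΔARE replicates 1 to 5. All 3 libraries with more than 2 counts were WT, and WT replicate 2 held 53.3% of the total. The depth-scaled ratio of WT to Zfp36ΔARE was 8.50 (95% counting interval 2.62 to 43.8) and 4.56 (1.21 to 25.5) without that library, while the exact permutation test over libraries gave p = 0.119. Fitted with no filter in edgeR, the log2 fold change was -2.78 (adjusted p = 0.081), and DESeq2 gave -2.90 (adjusted p = 0.0822). Leaving out WT replicate 4, at 0 counts, brought the exact permutation p to 0.0238.

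Camp, the cathelicidin precursor, was the most abundant of these 5 genes. Its raw counts were 11, 22, 2, 2 and 7 in WT replicates 1 to 5 and 4, 7, 0, 8 and 5 in the Zfp36ΔARE replicates. The genotypes were interleaved, and the ratio of WT to Zfp36ΔARE was 1.73 (95% counting interval 1.03 to 2.98) with all libraries and 1.14 without WT replicate 2 (exact permutation p = 0.524 and 0.960).

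The azurophil granule genes were near the limit of detection in both genotypes. Mpo had 2, 11, 2, 2 and 1 raw counts in WT and 2, 4, 0, 6 and 1 in Zfp36ΔARE replicates 1 to 5. Elane had 4, 5, 6, 0 and 3 in WT and 1, 3, 1, 0 and 1 in the Zfp36ΔARE replicates. For Mpo the WT to Zfp36ΔARE ratio was 1.31 (95% counting interval 0.606 to 2.90), with WT replicate 2 the highest library, and the exact permutation p was 0.786. For Elane, where 4 of 5 WT libraries were at or above the highest knock-in library, the ratio was 2.83 (1.08 to 8.72) and the exact permutation p was 0.0952, or 0.0159 without WT replicate 4. With all libraries, neither Mpo nor Elane had an exact permutation p under 0.05 at this depth.

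**Figure D2:**
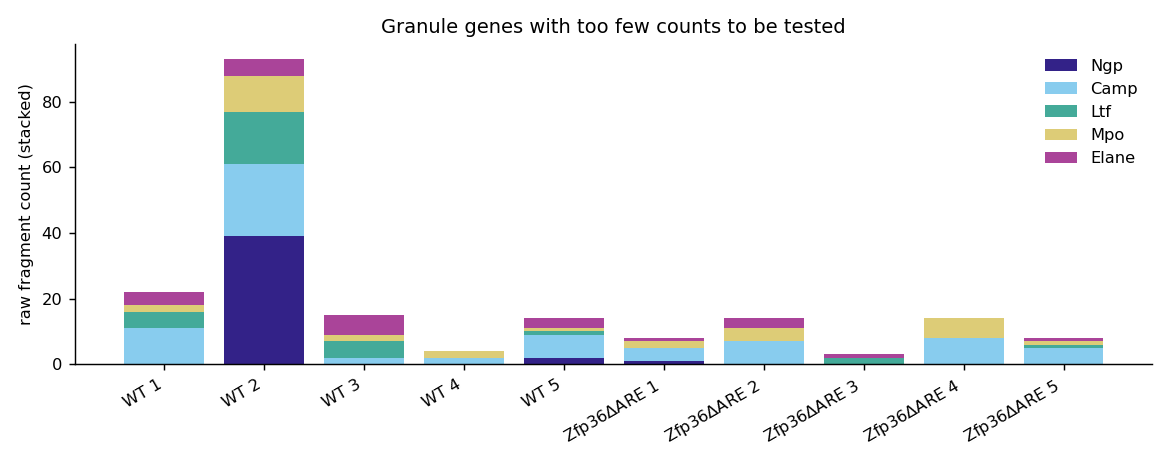
Raw fragment counts of Ngp, Camp, Ltf, Mpo and Elane, stacked, in each of the 10 libraries. WT replicate 2 holds 93 of the 195 counts, 39 of them from Ngp, and no other library holds more than 22.

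Per kilobase of gene length, the alarmins were far above the granule genes in either genotype. In WT skin the order was S100a9 (3404 ± 2066 normalized counts per kilobase), S100a8 (3087 ± 1917), Lcn2 (448 ± 257), Retnlg (50.9 ± 24.9), Camp (13.2 ± 10.8), Ngp (5.78 ± 12.0), Elane (3.94 ± 2.84), Ltf (1.80 ± 1.87) and Mpo (1.27 ± 1.26; SD, n = 5 each). S100a9 and S100a8 lay within each other's spread, as did the 5 low granule genes with their neighbors. In Zfp36ΔARE skin the subunits were at 5994 ± 9574 and 5094 ± 6232 per kilobase, Lcn2 at 409 ± 468, Retnlg at 34.2 ± 34.6 and Camp at 8.88 ± 6.74. For scale, the stress keratin Krt16 was at 9006 ± 5478 per kilobase in WT skin.

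The balance of the calprotectin subunits does not depend on library scaling. The log2 ratio of S100a9 to S100a8 counts was 0.76, 0.37, 0.61, 0.50 and 0.70 in WT replicates 1 to 5. In Zfp36ΔARE replicates 1 to 5 it was -0.58, -0.11, -0.75, 0.93 and 0.43. All WT libraries held more S100a9 than S100a8 counts, whereas 3 of the 5 knock-in libraries held fewer and replicate 4 had the highest ratio of all. The mean was 0.59 ± 0.16 in WT and -0.015 ± 0.70 in Zfp36ΔARE skin (SD, n = 5), and the difference of -0.60 had an exact two-sided permutation p of 0.119. The smallest p this design allows is 0.00794. The difference was -0.84 without Zfp36ΔARE replicate 4 (exact permutation p = 0.0159), so the call depended on whether that library was included.

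**Figure D3:**
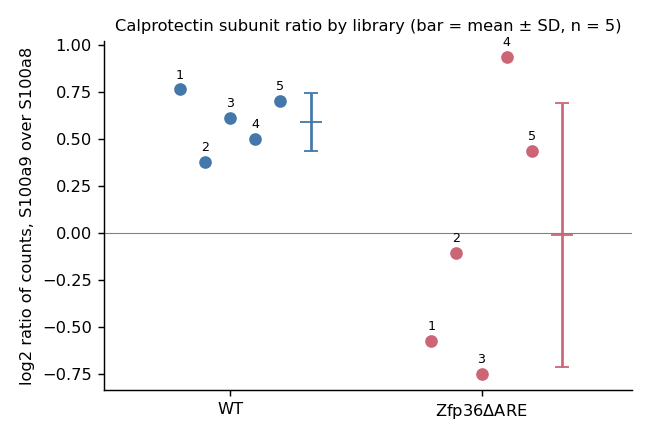
Log2 ratio of S100a9 to S100a8 counts in each library, with the replicate number beside each point and the mean ± SD at the side (n = 5 per genotype). The WT libraries lie between 0.37 and 0.76, and the Zfp36ΔARE libraries spread from -0.75 to 0.93.

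The tested genes were among the most variable in the skin transcriptome. Their biological coefficient of variation within genotypes, as edgeR estimated it, was 79.9% for S100a8, 99.2% for S100a9, 68.8% for Lcn2 and 67.1% for Retnlg, against a median of 14.9% and a 90th percentile of 33.5% over all tested genes. Among all tested genes these values stood between the 98.5 and 99.6 percentiles. The highest library held 21.9 times the lowest for S100a8, 29.8 times for S100a9, 11.6 times for Lcn2 and 10.3 times for Retnlg. On the log2 scale, the SD between WT libraries was 1.21 for S100a8, 1.15 for S100a9, 0.67 for Lcn2 and 0.60 for Retnlg. Between Zfp36ΔARE libraries it was 1.45, 2.07, 1.31 and 0.78, and whether the spread differed between genotypes was not tested.

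Whether these genes varied together was examined through their deviations from the group mean over the 10 libraries, for the 10 pairs of the 5 genes with at least 50 counts. S100a8 and S100a9 deviated together (Pearson r = 0.97 and Spearman rho = 0.95, each with a permutation p of 0.00031 and an adjusted p of 0.0031, n = 10), with r = 0.95 after the libraries farthest from the median, Zfp36ΔARE replicate 4 and WT replicate 3, were left out. This was the 1 pair of 10 to pass. Lcn2 and S100a8 gave r = 0.76 (permutation p = 0.0237, adjusted 0.0600; rho = 0.61, permutation p = 0.0640, adjusted 0.253), and with r = 0.69 without those libraries. Lcn2 and S100a9 gave r = 0.79 (permutation p = 0.0240, adjusted 0.0600; rho = 0.58, permutation p = 0.101, adjusted 0.253). Within the genotypes, correlations over 5 libraries each are given as a description. In WT skin, Lcn2 had an r of 0.26 with S100a8, 0.15 with S100a9, 0.73 with Retnlg and 0.51 with Camp. In Zfp36ΔARE skin, where replicate 4 was the highest in all 3 alarmins, these were 0.996, 0.98, 0.84 and 0.66. S100a8 had an r of -0.26 with Retnlg and 0.22 with Camp in WT skin, and of 0.87 and 0.71 in Zfp36ΔARE skin. For S100a9 these were -0.36 and 0.20 in WT skin and 0.81 and 0.80 in Zfp36ΔARE skin. Lcn2 and Retnlg gave r = 0.80 (permutation p = 0.0104, adjusted 0.0519; rho = 0.61, permutation p = 0.0959, adjusted 0.253), which fell to 0.44 without Zfp36ΔARE replicate 4 and WT replicate 2. Retnlg and Camp each had an r with S100a8 of 0.43 and 0.44 (permutation p = 0.256 and 0.212), and these dropped to 0.20 and 0.099 without the libraries farthest from the median.

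The genes whose deviations were most like those of S100a8 included components of the cornified envelope of keratinocytes. Among 13691 genes with a mean of at least 50 normalized counts, the 5 highest correlations were with Sprr2d, a cornified envelope precursor (r = 0.978), the protease inhibitor Slpi (0.974), S100a9 (0.971), Sec14l2 (0.968) and Lce3b, a late cornified envelope gene (0.966), over 10 libraries that share their scaling. Sprr2d was at 210, 658, 115, 953 and 720 normalized counts in WT replicates 1 to 5 and at 187, 176, 197, 3272 and 989 in the Zfp36ΔARE replicates. The order of the libraries resembled that of S100a8, with WT replicate 3 lowest and Zfp36ΔARE replicate 4 highest. Without Zfp36ΔARE replicate 4 the 5 correlations were 0.958, 0.964, 0.951, 0.937 and 0.942, and the closest gene was then Rapgef4 (r = 0.979).

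Read by list, 21 epidermal antimicrobial and stress genes had a median r with S100a8 of 0.816, against 0.039 over all genes in the pool. Krt16 and Krt6b, keratins of activated epidermis, had r = 0.955 and 0.946, and the cornified envelope gene Sprr1b had 0.940. The median was 0.182 for 9 other granule genes and 0.498 for 5 mature neutrophil markers, which ran from -0.440 for Il1r2 to 0.896 for BC100530. The median was 0.036 for 12 macrophage genes, 0.528 for 14 hair shaft genes, 0.522 for 11 interfollicular keratinocyte genes and -0.71 for 10 skeletal muscle genes. In WT skin BC100530 was at 13500 ± 5601 normalized counts per kilobase, beside 13200 ± 4161 for the stress-list gene Stfa3 (SD, n = 5). Which cells expressed BC100530 was not tested. The neutrophil chemokine receptor Cxcr2, which keratinocytes can also express, had r = 0.837. These correlations are descriptions over the same libraries, and Zfp36ΔARE replicate 4 was also the highest library in the mean of the stress genes (6.19, against 4.15 to 5.06 in the other knock-in and 3.84 to 5.48 in the WT libraries).

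The genes most like Ngp were Ythdf3 (r = 0.875), Ankrd16 (0.869), Pias1 (0.867), Ric1 (0.865) and Styk1 (0.865), none of which is a granule gene. Without WT replicate 2 the same correlations were -0.139, -0.758, -0.077, 0.423 and 0.654. The likeness to Ngp therefore rested on the library that held nearly all of its counts.

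**Figure D4:**
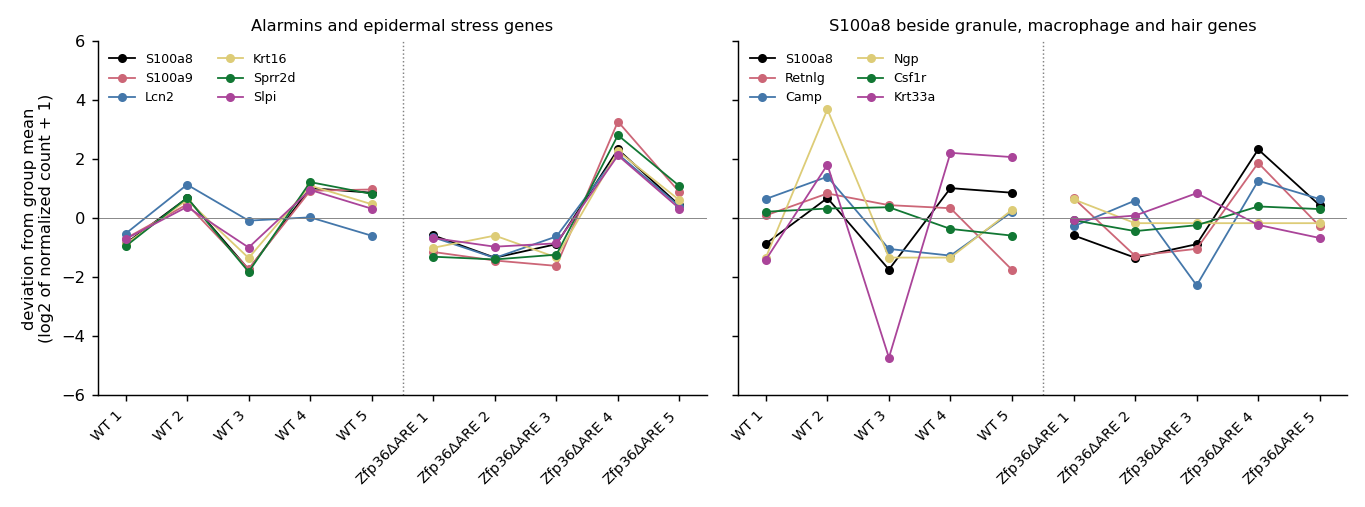
Deviation of log2 (normalized count + 1) from the group mean, by library, for S100a8, S100a9, Lcn2, Krt16, Sprr2d and Slpi on the left and for S100a8 beside Retnlg, Camp, Ngp, the macrophage gene Csf1r and the hair keratin Krt33a on the right, with a dotted line between genotypes. On the left the lines peak together at Zfp36ΔARE replicate 4, while on the right Ngp peaks at WT replicate 2 and Krt33a dips at WT replicate 3.

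Further genes of granules and of mature neutrophils were read beside the 9 genes. Among 13 tested of 18 other granule genes, 7 fell and 1 rose, beside 19.1% of all tested genes that fell and 15.3% that rose. The median log2 fold change of the 13 was -1.02. Lysozyme (Lyz2) was at 17040, 14930, 17320, 9400 and 9366 normalized counts in WT replicates 1 to 5 and at 3432, 2783, 2890, 4441 and 4858 in the Zfp36ΔARE replicates, with no overlap (log2 fold change -1.89, SE 0.234, edgeR adjusted p = 0.00369). The integrin chain Itgam, the gelatinase Mmp9 and the NADPH oxidase subunits Cybb and Cyba also fell, with log2 fold changes of -1.52, -1.65, -1.66 and -1.01 (edgeR adjusted p = 0.00547, 0.0138, 0.0082 and 0.0143). Padi4, which citrullinates histones in neutrophils, rose by 1.41 (edgeR adjusted p = 0.0196). It averaged 123.5 CPM over the libraries, and which cells of the skin expressed it was not tested.

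The azurophil protease Prtn3 had a log2 fold change of -1.02 (edgeR adjusted p = 0.0823) and haptoglobin (Hp) of -0.51 (0.229), and neither passed. Further granule genes were scarce, with 51 raw counts over all libraries for Ctsg, 45 for Olfm4, 1 for Ms4a3 and 1 for Bpi.

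Among 9 tested of 17 markers of mature neutrophils, 5 fell and 0 rose, beside 19.1% of all tested genes that fell and 15.3% that rose. The median log2 fold change of the 9 was -1.39. The granulocyte colony-stimulating factor receptor Csf3r had 251 ± 94.2 normalized counts in WT skin and 96.5 ± 38.8 in Zfp36ΔARE skin (SD, n = 5; log2 fold change -1.39, edgeR adjusted p = 0.0122). The C-type lectins Clec4d and Clec4e, the itaconate-producing enzyme Irg1 and the formyl peptide receptor Fpr2 were lower, with log2 fold changes of -2.33, -2.68, -2.37 and -1.70 (edgeR adjusted p = 0.024, 0.0106, 0.00941 and 0.00586). Cxcr2 (log2 fold change -0.24), Il1r2 (-0.30) and BC100530 (-0.03) did not pass (edgeR adjusted p = 0.697, 0.0711 and 0.973). Ly6g, the defining surface marker of mouse neutrophils, had 1 raw count in all 10 libraries together, and Trem3 had 10.

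Several of these genes are also used by macrophages, and macrophage markers moved with them. Beside 19.1% of all tested genes that fell and 15.3% that rose, 11 of 12 macrophage genes fell and 0 rose (median log2 fold change -1.37). Their mean level ran from 5.80 to 6.75 in WT and from 4.85 to 5.50 in Zfp36ΔARE libraries, without overlap (log2 of CPM + 0.5), and their summed level ran from 1075 to 2027 CPM in WT and from 545 to 791 in Zfp36ΔARE skin. None of the 12 was at 0. Lyz2 stands on both lists, and the part of macrophage genes in the granule and neutrophil results was not tested. Of 10 muscle genes, 9 fell and 0 rose, and 2 fell without WT replicates 1 and 3. Of 14 hair shaft genes, 6 rose and 0 fell in edgeR, but 14 rose in DESeq2, 0 with replicate number as a block, 2 without WT replicate 1 or without Zfp36ΔARE replicate 2 or 3, 4 without WT replicate 2, 11 without WT replicate 3 and 14 without both WT replicates 1 and 3. Over the whole table, 2373 of 15543 genes rose in edgeR, 3064 of 17324 in DESeq2 and 889 of 15543 with the block. Without WT replicates 1 and 3, 1080 of 15724 genes rose and 1424 fell. In that setting, 3 of the other granule genes and 3 of the neutrophil markers passed, all as lower. The part of muscle and hair genes in the granule and neutrophil results was not tested either. With Zfp36ΔARE replicate 1 as the only knock-in library, 0 passed in either list, in a comparison of 5 libraries with 1 in which edgeR called 0 of all genes.

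Few epidermal stress genes differed between genotypes. Among 21 tested of 23, 1 fell and 0 rose, beside 19.1% of all tested genes that fell and 15.3% that rose. The median log2 fold change of the 21 was 0.29, or -0.39 without Zfp36ΔARE replicate 4 and -0.0055 with limma-voom. The exception was the defensin Defb6, with 5440 ± 728 normalized counts in WT skin and 3656 ± 552 in Zfp36ΔARE skin (SD, n = 5; log2 fold change -0.57, edgeR adjusted p = 0.00945). Krt17 (log2 fold change 0.17) and Sprr1a (0.75) did not pass (edgeR adjusted p = 0.654 and 0.0602). Krt16 was at 14120 ± 8589 and 17240 ± 20360 normalized counts (log2 fold change 0.29, edgeR adjusted p = 0.782), and Slpi at 457 ± 238 and 506 ± 573 (0.14, adjusted p = 0.885).

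**Figure D5:**
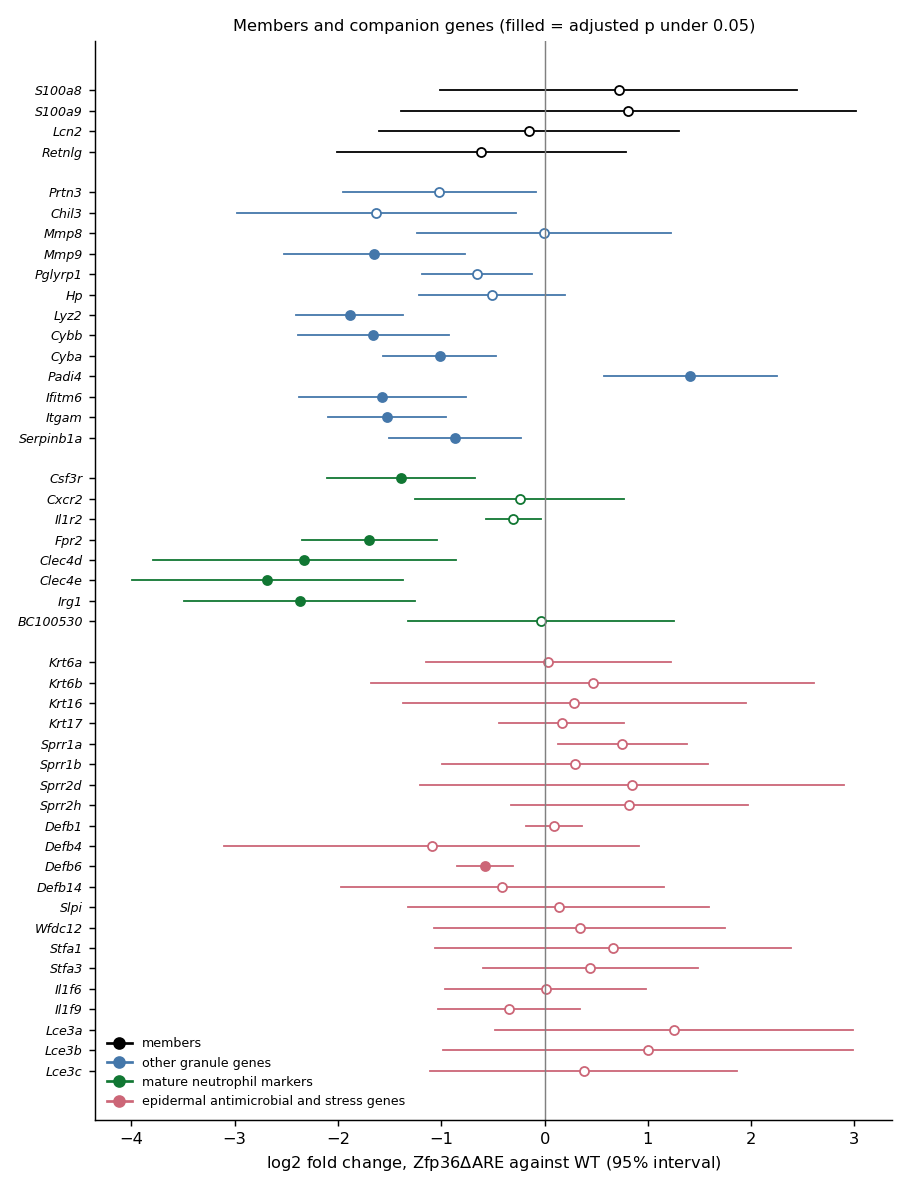
Log2 fold change of Zfp36ΔARE against WT skin with its 95% interval for the 4 tested alarmin and granule genes (labelled members), 13 other granule genes, 8 neutrophil markers and 21 epidermal stress genes, filled where the adjusted p was under 0.05. The first 4 genes and most stress genes have wide intervals across 0, whereas filled points among granule and neutrophil genes lie left of 0 except Padi4.

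The S100 family is a set of small calcium-binding proteins, mostly clustered on chromosome 3. Elsewhere in this family, 3 of 11 tested genes rose and 1 fell, 4 of 11 beside 34.3% of all tested genes. The number that rose was 5 in DESeq2, which tested 13, and 5 of 11 without WT replicate 3. Over the whole table, 3064 of 17324 genes rose in DESeq2 and 1824 of 15641 without WT replicate 3. S100a14 went from 12350 ± 2718 to 18630 ± 693 normalized counts (log2 fold change 0.59, edgeR adjusted p = 0.0136), and S100a16 and S100a1 rose by 0.65 and 0.70 (0.0174 and 0.011). S100a4, which fibroblasts and leukocytes use, fell by 0.80 (edgeR adjusted p = 0.0178). S100a6 (log2 fold change 0.34) and the hair-cuticle gene S100a3 (1.75) did not pass (edgeR adjusted p = 0.159 and 0.0614).

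Receptors of the secreted products were next. Of 9 tested, 4 fell and 0 rose, beside 19.1% of all tested genes that fell and 15.3% that rose. Tlr4, a receptor for calprotectin, fell by 0.87 on the log2 scale (416 ± 112 to 227 ± 50.1 normalized counts, SD, n = 5, edgeR adjusted p = 0.0156). Cd36, which binds calprotectin with its fatty acid cargo, and Lrp1, a receptor for lactoferrin, fell with log2 fold changes of -1.16 and -0.48 (edgeR adjusted p = 0.00671 and 0.00666). The other calprotectin receptors Ager (log2 fold change 0.22) and Bsg (0.0090), the lipocalin receptors Slc22a17 (0.044) and Lrp2 (0.81) and the cathelicidin-responsive channel P2rx7 (-0.18) did not pass (edgeR adjusted p = 0.297, 0.936, 0.654, 0.192 and 0.11).

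Upstream of these, 6 of 12 tested cytokine, receptor and transcription factor genes fell and 0 rose, beside 19.1% of all tested genes that fell. Without WT replicates 1 and 3, 2 of 13 fell, beside 1424 of all 15724 genes tested in that setting. Il1b, the inflammatory cytokine, was at 154, 99.4, 140, 105 and 97.0 normalized counts in WT replicates 1 to 5 and at 41.2, 31.7, 30.8, 122 and 42.2 in the Zfp36ΔARE replicates (log2 fold change -1.17, edgeR adjusted p = 0.0342). Zfp36ΔARE replicate 4, the library with the most S100a8, was the only knock-in within the WT range of Il1b. The transcription factors Cebpd, Spi1, Stat3, Cebpa and Gfi1 fell, with log2 fold changes of -1.03, -1.07, -0.46, -0.34 and -1.61 (edgeR adjusted p = 0.0141, 0.00852, 0.0394, 0.0132 and 0.0134). Cebpb (log2 fold change 0.29), Tnf (0.062), Il17ra (-0.25), Il17rc (-0.21) and Nfkbiz (-0.27) did not pass (edgeR adjusted p = 0.254, 0.826, 0.0923, 0.148 and 0.231). Il17a had 22 raw counts in all libraries, Csf3 had 13 and Il22 had 1, too few to be tested.

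Iron handling, the process that Lcn2 and lactoferrin act on, was tested through 11 of 12 genes, of which 5 fell and 2 rose. Over all tested genes, 19.1% fell and 15.3% rose. The ferritin chains Fth1 and Ftl1 and transferrin (Trf) fell, with log2 fold changes of -0.76, -0.78 and -1.06 (edgeR adjusted p = 0.00963, 0.00934 and 0.00785). The transferrin receptor Tfrc rose by 0.71 and the iron exporter Slc40a1 by 1.15 (0.00658 and 0.0328). Hmox1 (log2 fold change 0.28) did not pass (edgeR adjusted p = 0.136).

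Relatives of Lcn2 and Retnlg were expressed at higher levels in places and changed with genotype. In the lipocalin family, 2 of 5 tested genes fell and 1 rose, beside 19.1% of all tested genes that fell and 15.3% that rose. Orm1, Rbp4 and Ptgds had log2 fold changes of -0.78, -1.16 and 1.55 (edgeR adjusted p = 0.0066, 0.0149 and 0.0146), while Apod (-0.33) and Orm3 (-1.08) did not pass (0.122 and 0.132). In the resistin family, both tested genes fell in edgeR, Retn from 2266 ± 1144 to 860 ± 155 normalized counts (SD, n = 5, edgeR adjusted p = 0.00885) and Retnla from 4031 ± 1456 to 1835 ± 1057 (0.0432). Of the pair, 1 passed when any single library other than WT replicate 5 or Zfp36ΔARE replicate 1 was left out, with replicate number as a block and with no filter. Retn is made by adipocytes in the mouse and Retnla by alternatively activated macrophages.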

How the data were processed

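Libraries from full-thickness skin were sequenced in pairs of reads on an Illumina instrument. After reads of mean quality below 20 had been discarded, the authors mapped the others to mm10 with STAR 2.5.2b, counted fragments per gene with featureCounts (Subread 1.5.0-p1) and tested them with DESeq2. The deposited values are raw counts per gene for 10 libraries. How multimapping fragments and strand were handled is not given in the sources used here. The 2 rows with no gene name (7.38e-05% of counts) were left out.

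The counts were scaled by TMM, filtered with filterByExpr and tested with the quasi-likelihood test of edgeR 4.0.16 (R 4.3.3), genotype as the only term, with Benjamini-Hochberg adjustment over 15543 genes. Normalized counts are counts divided by each library's effective size (total times TMM factor) and multiplied by the average of those sizes. Members under the filter were tested with exact two-sided permutation of log2 (CPM + 0.5), and their ratios carry 95% exact counting intervals. Correlations used 100000 permutations within genotypes. DESeq2 1.42.0 and limma 3.58.1 (voom) were alternatives. Same-numbered libraries were not treated as pairs, since the labels do not say whether they share a litter or run. Their deviations correlated from -0.19 to 0.0859, which cannot exclude such sharing. The scripts were tested on simulated data. The p-values set the genotype difference against the spread between these libraries and treat the libraries as independent. Labels do not say that libraries came from separate litters or runs, so that independence is not known.

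The members and lists were chosen with earlier results of these data known. From each list the text names the most abundant genes, up to 3 that passed and up to 2 that did not, all receptors and upstream genes at 1 CPM or more, the 5 genes most like S100a8 and like Ngp, and Zfp36. Other genes, among them Mmp9, Cybb, Cyba, Clec4e, Fpr2, Cxcr2, Gfi1, S100a4, Krt16, Krt6b, Sprr1b, Slc40a1, Tfrc and those too low to be tested, were named after their values were seen. Flg was not analysed here, and 1 neutrophil marker is not reported here.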

Additional observations from a re-analysis of the deposited data

Results flagged for a closer look

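In 16 of 170 groups of 5 libraries examined, 1 library stood apart from the other 4, with a gap to its nearest neighbor above 0.71 of the whole range. About 5% of groups, or 8.5 of 170, would be expected to do so by chance. Of the 170, 18 belong to genes examined only because their deviations were most like those of S100a8 or of Ngp. That choice favors genes with the same library far out. They hold 3 of the 16 (Sprr2d, Slpi and Lce3b), and the chance share does not apply to them. The other 152 groups hold 13, where 7.6 would be expected for normally distributed values. Several of these groups share a library, and their genes vary together, so they are not independent.

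Zfp36ΔARE replicate 4 stood apart in 8 groups. It was high in S100a8 (6290 normalized counts against 493 to 1688 in the other 4 Zfp36ΔARE libraries, gap 0.794 of the range), in S100a9 (12000 against 403 to 2281, gap 0.838) and in Lcn2 (1048 against 90.5 to 307, gap 0.774). It was also high in the epidermal genes Sprr2d (3272 against 176 to 989, gap 0.737), Slpi (1514 against 177 to 434, gap 0.808) and Lce3b (359 against 22.6 to 98.9, gap 0.773) and in the cytokine Il1b (122 against 30.8 to 42.2, gap 0.874). It was low in the retinol-binding lipocalin Rbp4 (186 against 289 to 319, gap 0.772).

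WT replicate 2 stood apart in 3 of the 9 genes. It held 763 normalized counts of Lcn2 against 229 to 353 in the other WT libraries (gap 0.767), 31.5 of Ngp against 0 to 2.06 (gap 0.934) and 8.89 of Mpo against 1.03 to 2.44 (gap 0.821). Zfp36ΔARE replicate 1 was flagged for Ngp because it held a single raw count, 0.749 normalized counts, and the other 4 Zfp36ΔARE libraries held 0 (gap 1).

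The remaining libraries that stood apart were WT replicate 1 in Prtn3 (254 against 57.8 to 106, gap 0.755) and Irg1 (114 against 22.3 to 47.6, gap 0.725), WT replicate 3 in Retn (4249 against 1320 to 2069, gap 0.744) and Zfp36ΔARE replicate 3 in the muscle gene Atp2a1 (51240 against 21860 to 30200, gap 0.716).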

How the results depend on the processing

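Under each alternative that could be run, 0 of the 9 genes passed an adjusted p of 0.05 in a fit across all genes, with or without a fold change over 2. Direction was less stable. S100a8 turned negative without Zfp36ΔARE replicate 4 (-0.39) and with Zfp36ΔARE replicate 1 as the only knock-in, the libraries without Y-linked counts (-0.54). S100a9 turned negative under the same settings (-0.95 and -1.67), with limma-voom (-0.32) and with replicate number as a block (-0.26, edgeR adjusted p = 0.773). Lcn2 turned positive without WT replicate 2 (0.27) and without Zfp36ΔARE replicates 1, 2 or 3 (0.053, 0.10 and 0.038), and Mpo without WT replicate 2 (0.080) or Zfp36ΔARE replicates 3 or 5 (0.035 and 0.00088). Leaving out single libraries, S100a8 ranged from -0.39 to 0.97 and S100a9 from -0.95 to 1.09. Without Zfp36ΔARE replicate 4, Lcn2 was at -1.15 and Mpo at -0.13, the lowest values from leaving out single libraries. The difference in subunit ratio ranged from -0.84 to -0.42. Its exact permutation p was under 0.05 only without Zfp36ΔARE replicate 4, the library with the highest ratio (-0.84, p = 0.0159). For Ltf (-0.44) and Elane (-0.30) it was under 0.05 only without WT replicate 4, which held 0 counts of both (exact permutation p = 0.0238 and 0.0159). These p-values are unadjusted, and leaving out a library that runs against a difference lowers them. With a pseudocount of 1, the correlation of Lcn2 and Retnlg passed (r = 0.81, adjusted permutation p = 0.0377). The cause of these shifts was not tested beyond the libraries left out.

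The number of genes called over the whole table, 5335, was 2740 with the replicate block, 2504 without WT replicates 1 and 3, 3333 to 5349 without single libraries (lowest without Zfp36ΔARE replicate 2, and 3454 without WT replicate 1 and 3506 without Zfp36ΔARE replicate 3), and 0 with 1 knock-in library. With a fold change over 2, 1292 genes became 526 without WT replicates 1 and 3, 839 (without WT replicate 3) to 1521 without single libraries, and 0 with 1 knock-in library. The labels do not say that replicate numbers mark a shared litter or day, and the block changed no call among the 9 genes.

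Chosen after seeing the data, the counts of companion genes were also taken without doubtful libraries. Calls among other granule genes went from 8 to 3 without WT replicates 1 and 3 and to 0 with 1 knock-in library, those among mature neutrophil markers from 5 to 3 and 0, and those among epidermal stress genes from 1 to 2 without WT replicate 2 and to 0 with 1 knock-in library. DESeq2 gave no adjusted p for Ngp, and Retnlg was removed where at least 10 counts were required in every library. Depth limits the 5 low granule genes, whose differences rest on 1 to 44 counts per genotype, and the 5 libraries per genotype limit the alarmins, whose 95% intervals span several-fold changes in either direction.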
